A study of Homo sapiens with 12 samples.

Results

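The 53 genes described here encode nucleolar proteins that make ribosomes. They were taken by gene name from a table of 59324 genes measured by RNA sequencing in the MDA-MB-468 line of human breast cancer, a triple-negative line with extra copies of EGFR. All 53 names were found once in the table, and all 53 genes passed the filter of a mean of at least 1 TPM. TPM is a share of a library's transcripts corrected for transcript length. The cells had received SAHA (vorinostat, an inhibitor of histone deacetylases) at 10 µM for 12 h, sonidegib at 10 µM for 72 h, the combination, or neither drug as control. Sonidegib is an inhibitor of Smoothened, a signal protein of the Hedgehog pathway. The combination label names only the drugs, without dose, time or order. These were taken from the single-drug labels, and that of sonidegib alone calls it a pretreatment. That sonidegib came before SAHA in the combination is therefore inferred. Each group had 3 libraries, and all 12 came from the same cell line. What the control cells received is not given in the sources used here, nor whether sonidegib stayed on during SAHA, nor whether a group's 3 libraries stem from different cultures. The p-values therefore measure only the spread between libraries. The 3 comparisons against control share the same 3 control libraries.

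A ribosome is assembled in the nucleolus around ribosomal RNA. RNA polymerase I copies the ribosomal DNA into a long precursor. Small nucleolar ribonucleoproteins (snoRNPs) modify and fold it, the small subunit processome cuts out the RNA of the small subunit, and a further set of factors assembles the large subunit. Cancer cells with high MYC make many of these factors, and MYC binds with its partner MAX to the E-box, the palindrome CACGTG. The genes were divided by role into 3 abundant multifunctional nucleolar proteins, 8 snoRNP proteins, 5 genes of RNA polymerase I and ribosomal DNA transcription, 16 of the small subunit processome, 5 of late small subunit maturation and 16 of large subunit assembly.

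The E-box was searched in RefSeq promoter windows of GRCh38.p14, each of 300 bases, 250 before and 50 after a start. CACGTG is its own reverse complement, so a match on one strand is a match on both. Of the 53 genes 44 had a window in the table used. NOP58, NOLC1, TCOF1, MPHOSPH10, RRP12, BOP1, RRP1B, RRS1 and DDX18 had none. An E-box was present for 22 of the 44 genes (50%), against 12.6% of the 9715 other tested genes with a window and 8.78% of the 27305 genes in the whole table. In 21 of the 44 (47.7%) an E-box began within 50 bases of a start, against 5.21% of the other tested genes and 3.51% of the whole table. By window, 23 of the 53 windows of these genes held one (43.4%), against 9.34% of the windows of the other tested genes. Among the roles, 10 of 15 small subunit processome genes with a window held an E-box, as did 6 of 12 large subunit assembly genes, 3 of 6 snoRNP genes, 2 of 4 late small subunit maturation genes and 1 of 3 abundant proteins, and 0 of 4 genes of RNA polymerase I transcription. No test was made of these shares. A match describes the letters of a window and not a bound site.

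**Figure D1:**
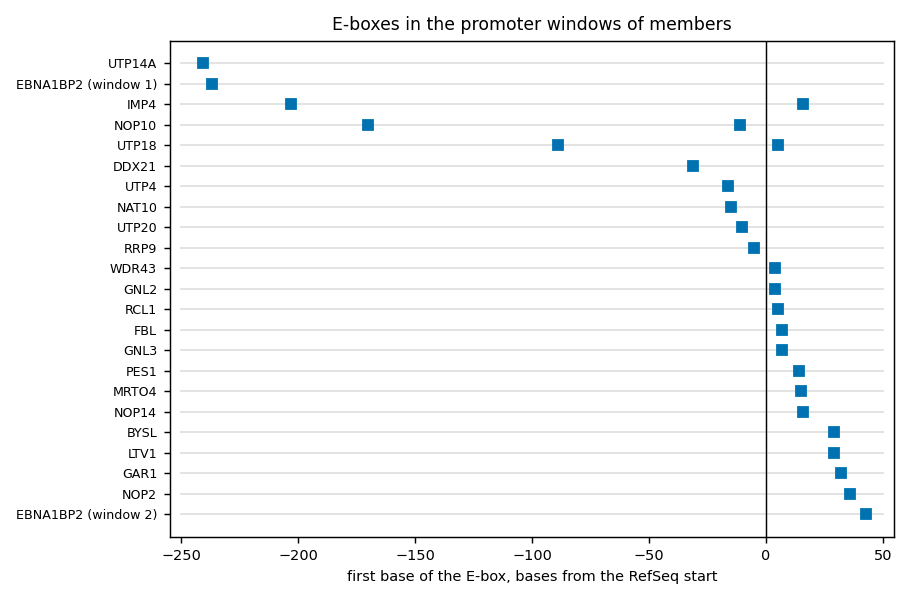
Position of each CACGTG in the promoter windows of the 22 genes that hold one, by its first base from the RefSeq start (horizontal axis, bases). Each row is a window and each square an E-box. EBNA1BP2 has 2 windows with different E-boxes. Most squares lie close to the start, and UTP14A, at -241, is the gene with none within 50 bases of it.

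Windows of 5 genes are printed to show where the E-box sits. UTP14A, MRTO4, UTP20 and NOP14 had the lowest combination-against-control changes among the genes with an E-box and a single window, and GNL2 had the highest. The windows lie at chrX:129905914-129906213 on the plus strand for UTP14A, chr1:19251555-19251854 on the plus strand for MRTO4, chr12:101279855-101280154 on the plus strand for UTP20, chr4:2963357-2963656 on the minus strand for NOP14 and chr1:37595888-37596187 on the minus strand for GNL2. Capitals mark the E-box, and each sequence runs 5′ to 3′ on the strand of its gene.
UTP14A: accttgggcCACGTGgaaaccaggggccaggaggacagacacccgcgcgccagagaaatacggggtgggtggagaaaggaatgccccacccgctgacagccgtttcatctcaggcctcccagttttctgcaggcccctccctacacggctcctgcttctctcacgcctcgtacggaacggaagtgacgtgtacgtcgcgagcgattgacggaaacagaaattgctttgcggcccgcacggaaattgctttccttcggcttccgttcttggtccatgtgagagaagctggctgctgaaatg
MRTO4: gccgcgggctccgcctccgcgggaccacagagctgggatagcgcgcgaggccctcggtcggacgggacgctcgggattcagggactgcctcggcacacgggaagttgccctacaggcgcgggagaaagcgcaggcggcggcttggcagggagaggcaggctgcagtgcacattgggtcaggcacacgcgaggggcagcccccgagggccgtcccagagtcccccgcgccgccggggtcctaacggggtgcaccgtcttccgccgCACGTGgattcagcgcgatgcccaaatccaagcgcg
UTP20: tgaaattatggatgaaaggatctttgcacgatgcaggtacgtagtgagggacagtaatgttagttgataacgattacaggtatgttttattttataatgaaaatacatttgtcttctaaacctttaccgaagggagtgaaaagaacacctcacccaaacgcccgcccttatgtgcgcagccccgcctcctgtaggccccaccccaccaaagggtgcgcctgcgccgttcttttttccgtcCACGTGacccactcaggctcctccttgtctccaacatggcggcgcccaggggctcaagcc
NOP14: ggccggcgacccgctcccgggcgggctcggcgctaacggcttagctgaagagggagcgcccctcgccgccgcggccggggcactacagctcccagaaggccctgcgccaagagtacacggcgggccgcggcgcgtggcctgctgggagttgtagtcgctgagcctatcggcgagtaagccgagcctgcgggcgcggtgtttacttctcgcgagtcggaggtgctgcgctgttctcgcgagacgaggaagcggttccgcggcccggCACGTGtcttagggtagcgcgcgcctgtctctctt
GNL2: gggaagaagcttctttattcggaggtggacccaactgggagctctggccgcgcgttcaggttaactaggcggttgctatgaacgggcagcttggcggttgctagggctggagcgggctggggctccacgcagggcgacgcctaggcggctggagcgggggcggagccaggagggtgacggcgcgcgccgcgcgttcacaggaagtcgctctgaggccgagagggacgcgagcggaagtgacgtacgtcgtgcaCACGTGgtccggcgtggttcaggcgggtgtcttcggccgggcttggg
The first base of the E-box stood at +15 in MRTO4, -10 in UTP20, +16 in NOP14 and +4 in GNL2, counting the first transcribed base as +1.

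The libraries carried the markers of the labelled cells. KRT8, KRT18, KRT5, KRT17, EPCAM and EGFR summed to between 6500.3 and 6748 TPM in SAHA libraries, 3040.0 and 3136 TPM in sonidegib libraries, 3276 and 3440.0 TPM in combination libraries and 4937 and 5391 TPM in control libraries. PGR was at 0 in all 12 libraries and ESR1 at no more than 1.76 TPM. ERBB2, the other luminal receptor listed as low in such cells, had 3.05 to 4.62 TPM in SAHA libraries, 22.5 to 26.3 TPM in sonidegib libraries, 5.65 to 7.39 TPM in combination libraries and 9.34 to 11.5 TPM in control libraries. Among leukocyte markers PTPRC, CD3E and LYZ stayed at or below 0.22 TPM, and CD14 reached 207 to 336 TPM. Of 5 fibroblast and endothelial markers COL1A1 had 2.83 to 12.8 TPM and the others at most 1.03 TPM. The 17 annotated 5S rRNA genes summed to 1763 to 12641 TPM in sonidegib libraries and 1488 to 5135 TPM in combination libraries, against 0 in all SAHA and control libraries. The other nuclear rRNA genes summed to 9747 to 12141 TPM in SAHA libraries, 2642 to 14083 TPM in sonidegib libraries, 3951 to 6100.2 TPM in combination libraries and 8924 to 15249 TPM in control libraries, so that sonidegib and control overlapped. Mitochondrial rRNA averaged 1.24% of TPM in SAHA libraries, 2.22% in sonidegib libraries, 2.61% in combination libraries and 0.616% in control libraries, and the ranges of SAHA and control did not overlap. The part of these differences in the results was not tested. The 5S difference coincided with sonidegib in all 12 libraries, and how RNA was selected is not given in the sources used here. A difference in library preparation between these sets therefore cannot be told apart from sonidegib.

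Transcripts of the 53 genes were a smaller share of the RNA in all 3 treated groups. Their summed share of TPM was 0.537% ± 0.027 in SAHA libraries, 0.586% ± 0.006 in sonidegib libraries, 0.532% ± 0.018 in combination libraries and 0.912% ± 0.016 in control libraries (SD, n = 3 each). The ranges of the treated groups did not overlap that of control, which ran from 0.893% to 0.925%. NPM1, FBL, NHP2 and NCL made up most of the sum, 52.2% of it in SAHA, 67.8% in sonidegib, 65.8% in combination and 61.3% in control libraries. In every group the lowest gene was UTP20 and the highest NPM1. In these bulk measurements fewer cells of a kind and less RNA per cell cannot be told apart.

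Each gene was tested with limma on log2(TPM + 1), and a gene was called where its p, adjusted over all 13937 tested genes of the comparison, was under 0.05. On this scale the changes of low genes are understated. SAHA lowered 38 of the 53 genes and raised 2 against control, beside 26.9% of all tested genes called lower and 31.8% called higher. The median log2 change was -0.43 over the 53 genes and 0.05 over all tested genes. Sonidegib lowered 47 and raised 1, beside 29.2% of all tested genes called lower and 26.1% higher, with medians of -0.75 and -0.02. The combination lowered 47 and raised 2, beside 34.0% and 29.7% of all tested genes, with medians of -0.86 and -0.02. The median gene stood at 73.5%, 58.2% and 54.5% of its control level under SAHA, sonidegib and the combination, and 7, 19 and 22 genes stood at 50% or less in that order. TPM was also recomputed over protein-coding genes of the nucleus alone, so that rRNA did not enter. Then 36, 47 and 46 genes were lower in the same order, beside 27.1%, 30.2% and 33.5% of the 12181 genes tested in that setting. Such a recomputation cannot remove a difference in library preparation.

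**Figure D2:**
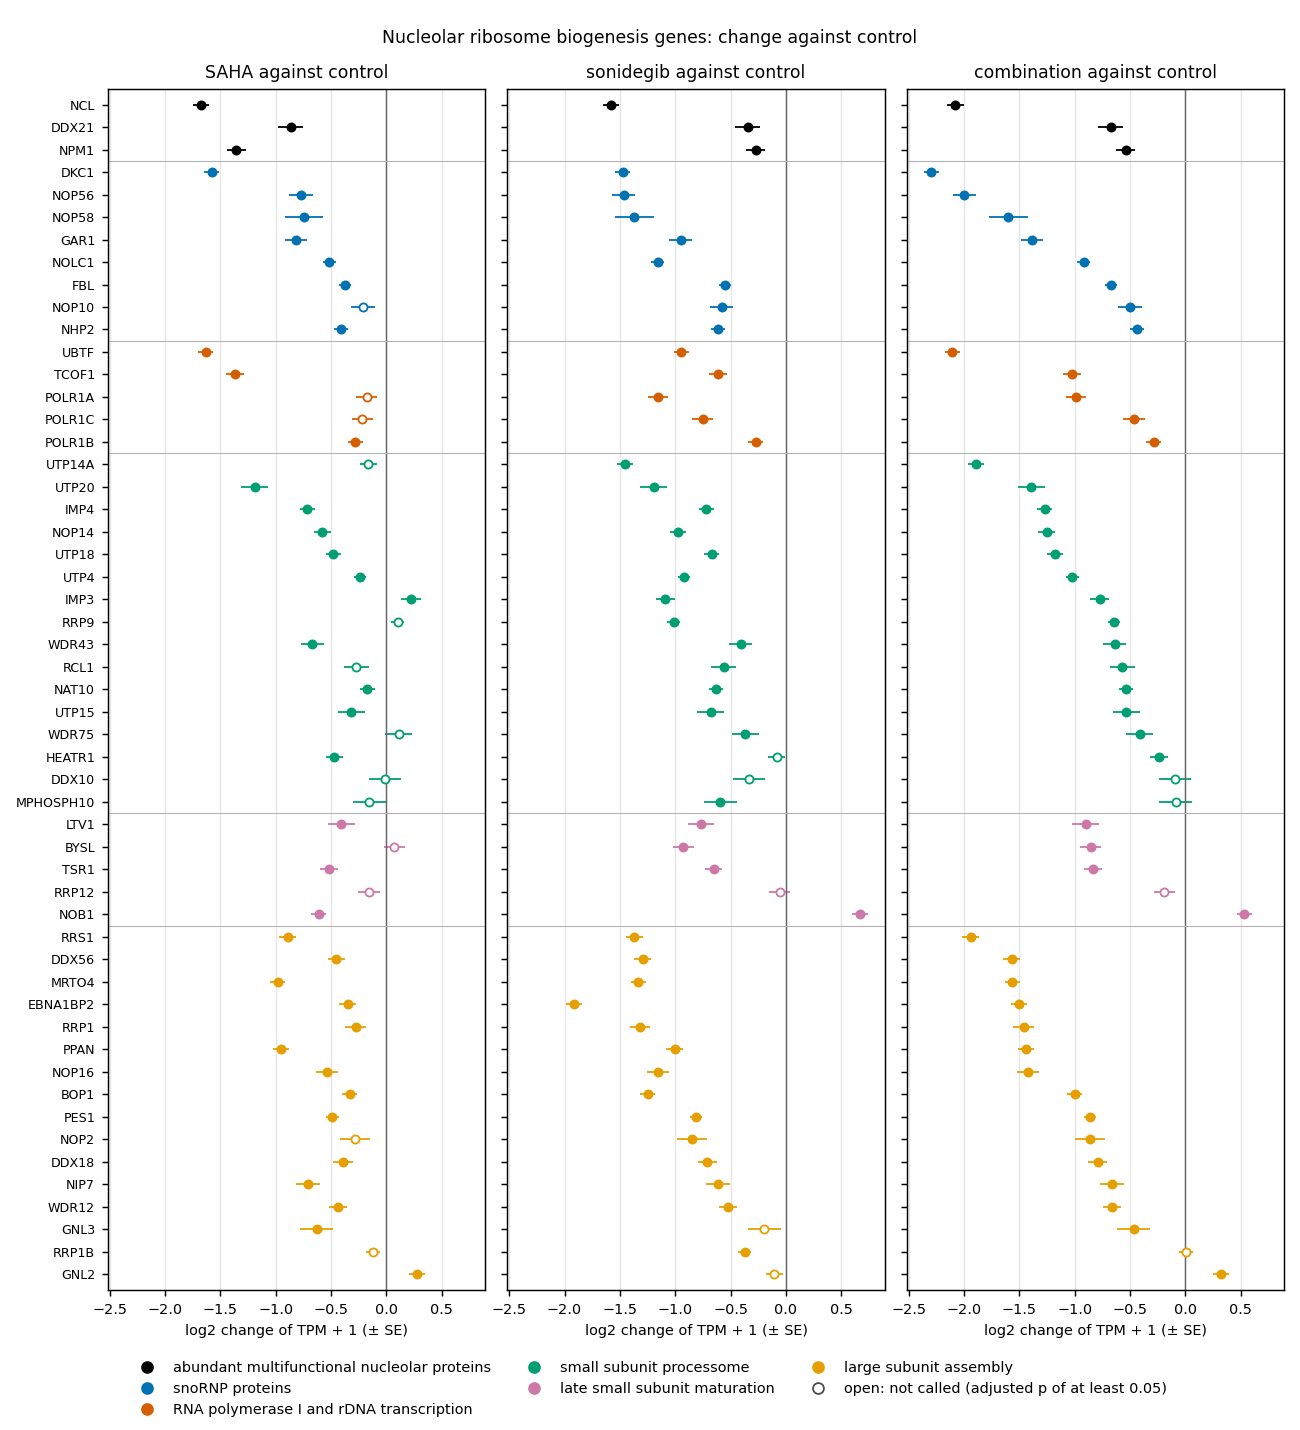
Log2 change of TPM + 1 (horizontal axis) for each of the 53 genes with SAHA, sonidegib or the combination against control. Points are estimates, bars are ± SE, colours are roles, and open points were not called. Most points lie left of 0 in all 3 panels, and NOB1 and GNL2 are the called points on the right with the combination.

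Among the abundant proteins all 3 genes fell with each treatment. Lower calls took 26.9%, 29.2% and 34.0% of all tested genes with SAHA, sonidegib and the combination. NCL encodes nucleolin, a major RNA-binding protein of the nucleolus. It had 232, 214 and 255 TPM in SAHA libraries, 236, 253 and 256 TPM in sonidegib libraries and 165, 169 and 193 TPM in combination libraries, against 754, 755 and 723 TPM in control libraries. Every treated library lay below every control library. The log2 change was -1.67 ± 0.07 (SE) under SAHA, -1.58 ± 0.07 under sonidegib and -2.08 ± 0.07 under the combination, with limma adjusted p of 9.05e-09, 2.69e-08 and 1.25e-09. NPM1 encodes nucleophosmin, a chaperone that forms the outer zone of the nucleolus. It had 1144, 1034 and 1391 TPM in SAHA libraries, 2409.8, 2673 and 2444 TPM in sonidegib libraries and 2086, 2108 and 2059 TPM in combination libraries, against 2975, 3015 and 3092 TPM in control libraries. The groups did not overlap, and the libraries with SAHA alone were the lowest. The log2 changes under SAHA, sonidegib and the combination were -1.36 ± 0.09, -0.27 ± 0.09 and -0.54 ± 0.09, with adjusted p of 1.35e-07, 0.0187 and 0.000192. The sonidegib call was lost under 5 of 23 alternatives, among them leaving out sonidegib library 1, sonidegib library 3 or control library 3, and the change was -0.13 after 75th percentile scaling. The annotation names 45 pseudogenes of NPM1, which summed to between 9.33 and 30.8 TPM per library. How reads shared with these near copies were assigned is not given in the sources used here. DDX21, an RNA helicase of ribosomal RNA transcription and processing, changed by -0.87 ± 0.11 under SAHA, -0.35 ± 0.11 under sonidegib and -0.68 ± 0.11 under the combination. Its sonidegib call was kept under 16 of 22 alternatives and lost with no filter, with 75th percentile scaling, with quantile normalization, and without sonidegib library 1, sonidegib library 2 or control library 3.

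All 8 snoRNP genes were called lower with sonidegib and with the combination, beside 29.2% and 34.0% of all tested genes. With SAHA 7 of 8 fell, beside 26.9%. The median level of the 8 genes was 64.7% of control under SAHA, 47.7% under sonidegib and 44.9% under the combination. DKC1 encodes dyskerin, the pseudouridine synthase of box H/ACA snoRNPs and a part of telomerase. DKC1 had 64.7, 64.5 and 65.7 TPM in SAHA libraries, 70.5, 66.2 and 72.99 TPM in sonidegib libraries and 35.1, 42.9 and 39.8 TPM in combination libraries, against 192, 201 and 195 TPM in control libraries. It had the lowest combination-against-control change of the 53 genes, -2.29 ± 0.07 on the log2 scale (adjusted p 3.79e-10), beside -1.58 ± 0.07 with SAHA (7.75e-09) and -1.48 ± 0.07 with sonidegib (2.58e-08). NOP56 is a core protein of box C/D snoRNPs. NOP56 had 93.3, 106 and 102 TPM in SAHA libraries, 65.02, 53.9 and 67.1 TPM in sonidegib libraries and 38.1, 44.4 and 44.98 TPM in combination libraries, against 151, 182 and 185 TPM in control libraries. The 4 groups did not overlap, with the combination lowest. Its log2 changes were -0.77 ± 0.11 (adjusted p 6.56e-05), -1.46 ± 0.11 (5.68e-07) and -1.997 ± 0.11 (2.5e-08) with SAHA, sonidegib and the combination. Exons of both DKC1 and NOP56 overlap annotated snoRNA or microRNA genes on the same strand, and whether the counting kept these apart is not given in the sources used here.

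FBL encodes fibrillarin, the methyltransferase of box C/D snoRNPs. FBL had 663, 739 and 706 TPM in SAHA libraries, 646, 631 and 588 TPM in sonidegib libraries and 568, 590.4 and 553 TPM in combination libraries, against 954, 918 and 857 TPM in control libraries. It stood at 77.3%, 68.3% and 62.7% of control, with log2 changes of -0.37 ± 0.06, -0.55 ± 0.06 and -0.67 ± 0.06 and adjusted p of 0.000155, 9.35e-06 and 1.11e-06. NOP58, the partner of NOP56, had log2 changes of -0.74, -1.37 and -1.60, all called. The H/ACA proteins GAR1, NHP2 and NOP10 stood at 37.2%, 73.95% and 70.5% of control with the combination, and the snoRNP chaperone NOLC1 at 52.7%. NOP10 was the snoRNP gene not called with SAHA, at -0.21.

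Of the 5 genes of RNA polymerase I transcription, 3 fell with SAHA and 5 with sonidegib and with the combination. The shares of all tested genes called lower were 26.9%, 29.2% and 34.0% in these 3 comparisons. UBTF encodes UBF, which binds ribosomal DNA and keeps it open for transcription. UBTF had 11.1, 12.1 and 10.9 TPM in SAHA libraries, 18.1, 19.7 and 19.1 TPM in sonidegib libraries and 7.73, 7.91 and 8.15 TPM in combination libraries, against 37.2, 35.7 and 39.5 TPM in control libraries. All 4 groups were apart, and the combination was lowest. Its log2 change was -1.63 ± 0.07 with SAHA (adjusted p 5.62e-09), -0.94 ± 0.07 with sonidegib (5.02e-07) and -2.11 ± 0.07 with the combination (5.88e-10). TCOF1 encodes treacle, a nucleolar scaffold that works with UBF. TCOF1 had 17.6, 18.6 and 18.1 TPM in SAHA libraries, 31.3, 30.5 and 32.05 TPM in sonidegib libraries and 24.2, 19.9 and 26.1 TPM in combination libraries, against 48.7, 47.98 and 48.2 TPM in control libraries. As for NPM1, the libraries with SAHA alone were the lowest. The log2 changes were -1.37 ± 0.08 (adjusted p 9.36e-08), -0.61 ± 0.08 (7.69e-05) and -1.02 ± 0.08 (7.82e-07) in the same order of treatments.

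Of the 3 polymerase subunits, POLR1B was the one called with SAHA. POLR1A encodes the largest subunit of RNA polymerase I. POLR1A had 11.9, 11.5 and 11.4 TPM in SAHA libraries, 5.25, 5.48 and 5.51 TPM in sonidegib libraries and 6.55, 5.20 and 6.92 TPM in combination libraries, against 13.7, 13.1 and 13.1 TPM in control libraries. The SAHA libraries lay just below control and the libraries with sonidegib far below both. The log2 change with SAHA, -0.18 ± 0.09, was not called (adjusted p 0.115), and those with sonidegib, -1.15 ± 0.09, and with the combination, -0.99 ± 0.09, were (1.17e-06 and 2.33e-06). POLR1C, a subunit shared with RNA polymerase III, was not called with SAHA (log2 change -0.22) and was lower with sonidegib (-0.75). POLR1B, the other catalytic core subunit, stood at 81.4%, 81.8% and 80.9% of control with SAHA, sonidegib and the combination.

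Of the 16 small subunit processome genes 9 fell and 1 rose under SAHA, and 14 fell under sonidegib and 14 under the combination. Beside these, 26.9%, 29.2% and 34.0% of all tested genes were called lower in the same order, and 31.8% higher with SAHA. Of 22 alternatives the SAHA call was kept under 10 for UTP15 and 13 for NAT10. The sonidegib call of WDR75 was kept under 16 of 22. UTP14A, whose yeast counterpart activates the helicase Dhr1, had 33.5, 34.9 and 34.5 TPM in SAHA libraries, 13.6, 13.4 and 13.3 TPM in sonidegib libraries and 8.61, 10.5 and 9.92 TPM in combination libraries, against 37.4, 40.9 and 37.2 TPM in control libraries. The SAHA libraries sat close to control, and the sonidegib and combination libraries were all below both. The log2 change was -0.16 ± 0.07 with SAHA (not called, adjusted p 0.0785), -1.45 ± 0.07 with sonidegib (4.52e-08) and -1.89 ± 0.07 with the combination (2.74e-09). UTP20, a large scaffold protein of the processome, had 2.24, 1.77 and 2.37 TPM in SAHA libraries, 2.08, 2.26 and 1.99 TPM in sonidegib libraries and 1.66, 1.52 and 1.97 TPM in combination libraries, against 5.77, 5.96 and 6.64 TPM in control libraries. It fell to like levels in all 3 treated groups, with log2 changes of -1.19 ± 0.12, -1.19 ± 0.12 and -1.39 ± 0.12 (adjusted p 5.78e-06, 7.68e-06 and 1.33e-06).

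IMP3, IMP4 and MPHOSPH10 form a complex on the U3 snoRNA, and their transcripts had different calls. IMP3 had 72.1, 73.7 and 72.2 TPM in SAHA libraries, 28.3, 25.9 and 31.9 TPM in sonidegib libraries and 33.5, 34.5 and 40.1 TPM in combination libraries, against 57.7, 64.3 and 64.6 TPM in control libraries. It was higher than control with SAHA and lower with sonidegib and the combination, with log2 changes of 0.22 ± 0.09, -1.09 ± 0.09 and -0.77 ± 0.09 (adjusted p 0.044, 1.17e-06 and 1.12e-05). The SAHA call was lost under 11 of 23 alternatives, among them leaving out any 1 SAHA library, any 1 control library, sonidegib library 1 or combination library 2. IMP4 had 77.01, 85.97 and 77.7 TPM in SAHA libraries, 85.9, 80.1 and 73.7 TPM in sonidegib libraries and 51.2, 55.1 and 56.05 TPM in combination libraries, against 135, 135 and 126 TPM in control libraries. Both single drugs lowered IMP4 to a like level, and the combination libraries were lower still, with log2 changes of -0.71 ± 0.07, -0.72 ± 0.07 and -1.27 ± 0.07 (adjusted p 3.53e-06, 4.55e-06 and 2.71e-08). MPHOSPH10 had 20.5, 16.98 and 25.6 TPM in SAHA libraries, 13.5, 15.4 and 16.4 TPM in sonidegib libraries and 19.6, 20.8 and 25.3 TPM in combination libraries, against 22.9, 20.4 and 26.6 TPM in control libraries. It was called against control with sonidegib alone, at -0.59 ± 0.15 (adjusted p 0.00566), and the SAHA and combination libraries overlapped control.

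HEATR1, a factor that links the processome to ribosomal DNA transcription, had 12.9, 11.6 and 13.98 TPM in SAHA libraries, 16.3, 16.9 and 17.9 TPM in sonidegib libraries and 14.8, 14.6 and 16.2 TPM in combination libraries, against 18.9, 17.2 and 18.2 TPM in control libraries. It fell with SAHA (log2 change -0.47 ± 0.08, adjusted p 0.000321) and was not called with sonidegib (-0.08 ± 0.08, 0.389). Its combination call against control, -0.24 ± 0.08 (adjusted p 0.02), was lost under 5 of 23 alternatives, among them leaving out combination library 1, combination library 2 or control library 1. Exons of HEATR1 overlap LGALS8 on the opposite strand. The other processome genes that fell ranged from -1.25 for NOP14 to -0.41 for WDR75 with the combination, where the WDR75 call was lost after 75th percentile scaling, and the helicase DDX10 was not called with any treatment.

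In late small subunit maturation NOB1 was called higher with sonidegib and with the combination, where 3 of the other 4 genes were called lower. Over all tested genes 26.1% and 29.7% were called higher in these comparisons, and 29.2% and 34.0% lower. NOB1 encodes the nuclease that makes the final cut of 18S rRNA. NOB1 had 30.6, 34.4 and 34.3 TPM in SAHA libraries, 83.8, 85.2 and 76.6 TPM in sonidegib libraries and 76.8, 69.3 and 77.3 TPM in combination libraries, against 48.4, 53.7 and 51.3 TPM in control libraries. SAHA lowered it, and every library with sonidegib lay above every control library. Its log2 change was -0.61 ± 0.07 with SAHA (adjusted p 1.66e-05), 0.67 ± 0.07 with sonidegib (1.11e-05) and 0.53 ± 0.07 with the combination (4.39e-05). Exons of NOB1 overlap a gene on the opposite strand, one of 21 such genes among the 53, and whether the libraries kept strand is not given in the sources used here.

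BYSL, LTV1 and TSR1, which accompany the maturing small subunit, fell with sonidegib and with the combination. BYSL had 57.4, 70.9 and 67.9 TPM in SAHA libraries, 35.1, 29.99 and 31.3 TPM in sonidegib libraries and 30.9, 35.02 and 35.5 TPM in combination libraries, against 60.3, 67.3 and 58.5 TPM in control libraries. The SAHA and control libraries overlapped (0.07 ± 0.09, adjusted p 0.541), and the changes with sonidegib and the combination were -0.93 ± 0.09 and -0.86 ± 0.09 (8.29e-06 and 1e-05). LTV1 had 16.1, 14.5 and 20.4 TPM in SAHA libraries, 12.3, 13.2 and 13.2 TPM in sonidegib libraries and 10.2, 11.6 and 13.4 TPM in combination libraries, against 21.9, 22.3 and 23.8 TPM in control libraries. Its log2 changes were -0.41 ± 0.12, -0.77 ± 0.12 and -0.90 ± 0.12 (adjusted p 0.0116, 0.000215 and 4.23e-05), and the SAHA call was lost without SAHA library 2. TSR1 stood at 68.96%, 62.8% and 54.8% of control. RRP12 was not called with any treatment.

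**Figure D3:**
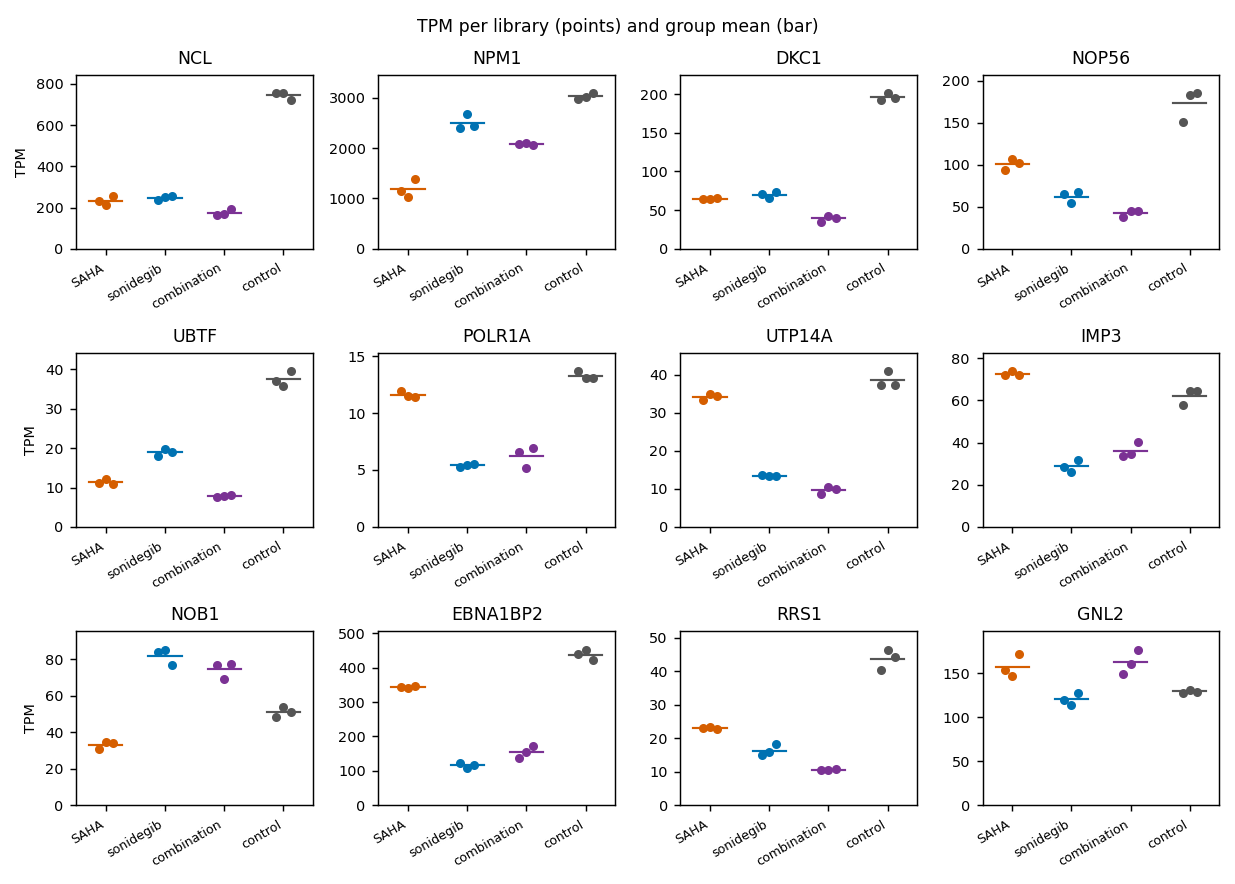
TPM in each library (points, vertical axis from 0) and the group mean (bar) for 12 of the genes, with SAHA, sonidegib and combination left of control. POLR1A and UTP14A are low in the groups with sonidegib, NPM1 is lowest with SAHA alone, and NOB1 is above control in both groups with sonidegib.

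Large subunit assembly had 13 of 16 genes lower and 1 higher with SAHA, 14 lower with sonidegib, and 14 lower and 1 higher with the combination. For all tested genes the lower shares were 26.9%, 29.2% and 34.0%, and the higher shares 31.8%, 26.1% and 29.7%. EBNA1BP2, an early large subunit assembly factor, had the lowest sonidegib-against-control change of the 53 genes. EBNA1BP2 had 343, 340.0 and 348 TPM in SAHA libraries, 122, 108 and 118 TPM in sonidegib libraries and 138, 155 and 172 TPM in combination libraries, against 439, 453 and 424 TPM in control libraries. All 4 groups were apart, and the combination libraries lay above those with sonidegib alone. The log2 changes were -0.35 ± 0.07 (adjusted p 0.00161), -1.91 ± 0.07 (8.05e-09) and -1.50 ± 0.07 (1.48e-08). RRS1, which helps to bring the 5S ribonucleoprotein into the precursor, had 23.1, 23.2 and 22.8 TPM in SAHA libraries, 14.9, 15.8 and 18.2 TPM in sonidegib libraries and 10.6, 10.4 and 10.8 TPM in combination libraries, against 40.3, 46.4 and 44.3 TPM in control libraries. The 4 groups did not overlap, with the combination lowest at -1.94 ± 0.08 (adjusted p 3.39e-09), beside -0.89 ± 0.08 with SAHA (1.73e-06) and -1.37 ± 0.08 with sonidegib (1.01e-07).

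PES1 forms with BOP1 and WDR12 a complex needed for large subunit rRNA processing, and all 3 fell with each treatment. PES1 had 86.96, 98.1 and 88.99 TPM in SAHA libraries, 71.3, 73.7 and 72.8 TPM in sonidegib libraries and 70.7, 68.3 and 70.96 TPM in combination libraries, against 125, 136 and 125 TPM in control libraries. The sonidegib and combination libraries all lay below the SAHA libraries, and these below control, with log2 changes of -0.49 ± 0.06, -0.81 ± 0.06 and -0.86 ± 0.06 (adjusted p 1.57e-05, 3.91e-07 and 1.18e-07). BOP1 stood at 79.2%, 41.3% and 49.3% of control and WDR12 at 73.5%, 69.1% and 62.4%.

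RRP1 and RRP1B are paralogues that act in large subunit assembly. RRP1 had 50.8, 55.4 and 48.5 TPM in SAHA libraries, 25.1, 23.1 and 25.6 TPM in sonidegib libraries and 19.3, 22.6 and 24.8 TPM in combination libraries, against 61.95, 67.5 and 58.8 TPM in control libraries. RRP1B had 40.1, 40.8 and 39.9 TPM in SAHA libraries, 31.4, 34.7 and 34.8 TPM in sonidegib libraries and 43.95, 41.7 and 46.2 TPM in combination libraries, against 44.8, 41.4 and 45.2 TPM in control libraries. With the combination RRP1 changed by -1.46 ± 0.09 (adjusted p 9.96e-08) and RRP1B by 0.00 ± 0.06 (0.958), and the difference between these genes was not tested. RRP1 changed by -0.28 ± 0.09 with SAHA (adjusted p 0.0216), a call lost without SAHA library 1, SAHA library 3 or control library 2, and by -1.32 ± 0.09 with sonidegib (4.64e-07). RRP1B was called with sonidegib alone, at -0.37 ± 0.06 (0.000351).

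GNL2, a nucleolar GTPase that prepares the large subunit for export, was the member of its role called higher. GNL2 had 153, 147 and 171 TPM in SAHA libraries, 120.0, 114 and 127 TPM in sonidegib libraries and 149, 161 and 177 TPM in combination libraries, against 128, 131 and 129 TPM in control libraries. Both groups with SAHA lay above control, with log2 changes of 0.28 ± 0.07 under SAHA (adjusted p 0.00677) and 0.32 ± 0.07 under the combination (0.00234). The sonidegib change, -0.10 ± 0.07, was not called (0.252). Its relative GNL3, nucleostemin, was lower with SAHA (log2 change -0.63) and with the combination (-0.47), and the combination call was lost without combination library 1 or control library 3. The other large subunit genes that fell with the combination ranged from -1.57 for DDX56 and MRTO4 to -0.66 for NIP7. Exons of PPAN and NOP2 overlap read-through or other genes on the same strand, so reads of these 2 may be shared.

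**Figure D4:**
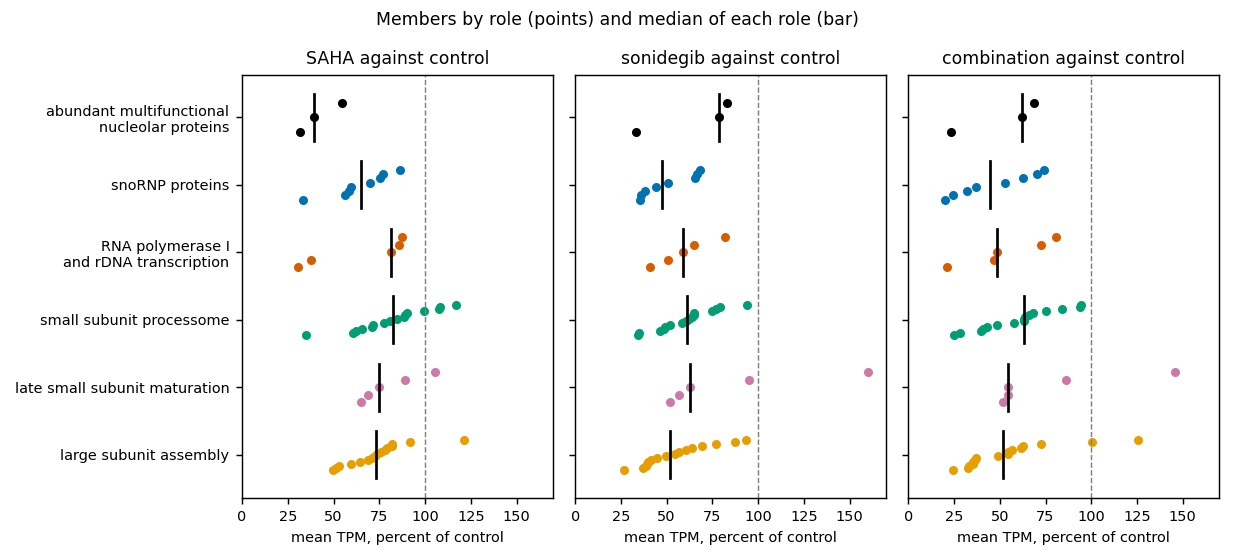
Mean TPM of each gene as a percent of its control mean (horizontal axis), by role, with SAHA, sonidegib or the combination. Points are genes and bars are role medians. With SAHA the abundant proteins have the lowest median (39.3%), and with sonidegib the snoRNP genes do (47.7%).

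The medians of the roles stood in a different order for each drug, with the largest shift in the median of the 3 abundant proteins. Apart from these, the snoRNP genes had the lowest median under SAHA (64.7%) and sonidegib (47.7%), and large subunit assembly the next. The abundant proteins had a median of 39.3% of control under SAHA, 78.3% under sonidegib and 62.3% under the combination. With 3 genes each median is the value of a single gene, NPM1 under SAHA and DDX21 under the other treatments. NCL stood at 31.4%, 33.4% and 23.6% in the same order. DDX21 averaged 91.2 TPM in control libraries, against 910 TPM for the snoRNP gene FBL, so the role's name does not rank transcript levels. Genes of RNA polymerase I transcription had 81.4%, 58.9% and 48.4% in the same order, the small subunit processome 82.6%, 61.3% and 63.3%, late small subunit maturation 75.04%, 62.8% and 54.8%, and large subunit assembly 73.2%, 51.9% and 51.8%. These are descriptions of 3 to 16 genes per role, and no test between roles was made.

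With SAHA added to sonidegib the called genes went in both directions, and the higher calls were near the share over all tested genes. Leaving out 1 library gave 12 to 17 lower calls and 7 to 10 higher calls. Against sonidegib the combination lowered 16 of the 53 genes and raised 10, beside 21.0% and 17.5% of all tested genes, and the median log2 change was -0.14 against -0.02 over all tested genes. UBTF had the lowest change, -1.16 ± 0.07 (adjusted p 3.92e-07), followed by DKC1 at -0.82 ± 0.07 (5.2e-06), RRS1 at -0.57 ± 0.08 (0.000174) and IMP4 at -0.55 ± 0.07 (8.67e-05). The highest called changes were those of MPHOSPH10 (0.51 ± 0.15, 0.0199), GNL2 (0.43 ± 0.07, 0.000838), EBNA1BP2 (0.41 ± 0.07, 0.00113) and RRP1B (0.38 ± 0.06, 0.000617). The MPHOSPH10 call was lost without sonidegib library 1 or combination library 3.

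Against SAHA the combination lowered 35 of the 53 genes and raised 4, beside 33.0% and 18.0% of all tested genes. The median log2 change was -0.40 over the 53 genes and -0.12 over all tested genes. After median-of-ratios scaling, which moved the all-gene median by 0.12, 30 genes were lower and 8 higher, beside 26.2% and 25.8% of all tested genes. UTP14A had the lowest change at -1.73 ± 0.07 (adjusted p 2.72e-08), followed by NOP56 at -1.23 ± 0.11 (2.92e-06), RRP1 at -1.18 ± 0.09 (1.35e-06) and EBNA1BP2 at -1.15 ± 0.07 (3.42e-07). The 4 genes that rose were NOB1 at 1.15 ± 0.07 (2.56e-07), NPM1 at 0.82 ± 0.09 (1.3e-05), TCOF1 at 0.34 ± 0.08 (0.00468) and HEATR1 at 0.23 ± 0.08 (0.0293). The HEATR1 call was lost without SAHA library 1, SAHA library 2 or combination library 3.

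The interaction, combination minus sonidegib minus SAHA plus control on the log2 scale, asks whether the SAHA change was the same with sonidegib as without it. It was called positive for 25 of the 53 genes, beside 11.8% of all tested genes, and negative for 0, beside 19.7%. With limma at an unadjusted p under 0.05 there were 33 positive genes and 1 negative gene. The share of all tested genes at this looser threshold is not given here, so these counts have no background beside them. The median was 0.32 over the 53 genes and -0.07 over all tested genes, and 50 of the 53 values were above 0, against 44.1% of all tested genes. The highest values were those of NCL (1.17 ± 0.10, adjusted p 1.33e-05), NPM1 (1.09 ± 0.12, 6.36e-05), UTP20 (0.99 ± 0.17, 0.00113) and TCOF1 (0.96 ± 0.12, 0.000123). SAHA alone lowered each of them by more than 1 log2 unit, but the SAHA change is itself subtracted in the interaction, so the 2 values are linked by construction. UBTF and DKC1, at -1.63 and -1.58 with SAHA, had interaction values of 0.47 and 0.76. That negative gene was UTP14A at -0.28 ± 0.10 (adjusted p 0.0627), which was called without combination library 2, where the value was -0.33 (adjusted p 0.0345). By role the positive calls numbered 3 of 3 abundant proteins, 4 of 8 snoRNP genes, 3 of 5 genes of RNA polymerase I transcription, 5 of 16 processome genes, 2 of 5 late small subunit genes and 8 of 16 large subunit genes. After median-of-ratios scaling 38 genes were called positive and 0 negative, beside 18.6% and 16.2% of all tested genes. With TPM over protein-coding genes of the nucleus alone 21 were called positive and 1 negative, beside 12.8% and 24.5%.

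**Figure D5:**
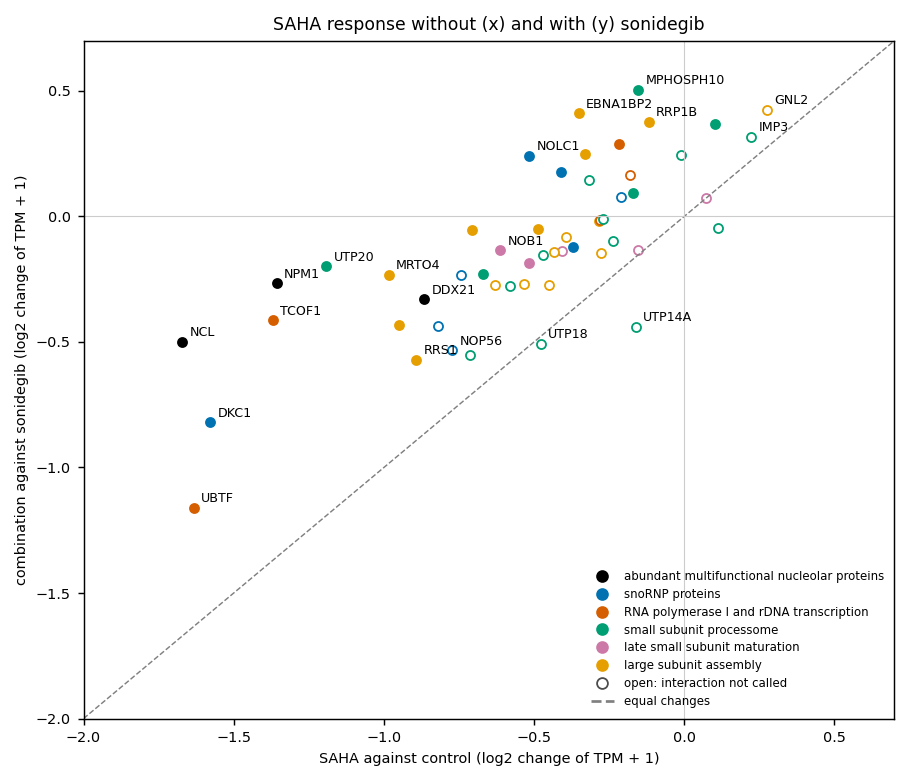
Log2 change of TPM + 1 for each of the 53 genes with SAHA alone against control (horizontal axis) and with SAHA added to sonidegib, that is the combination against sonidegib (vertical axis). Colours are roles, open points have no interaction call, and the dashed line marks equal changes. Points lie mostly above the line, with UTP14A among the 3 below it.

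The SAHA change with sonidegib and the SAHA change without it come from different libraries. Across the 53 genes they had a Pearson r of 0.76 and a Spearman rho of 0.78, and across all tested genes r was 0.55. The change with sonidegib was the smaller in size for 42 of the 53 genes, against 67.1% of all tested genes. The sonidegib change with SAHA and the sonidegib change without it had an r of 0.83 and a rho of 0.83 over the 53 genes, and r was 0.54 over all tested genes. It was the smaller in size with SAHA for 47 of the 53, against 53.5% of all tested genes. These correlations are across genes measured in the same libraries, so the genes are not independent points.

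The changes were also set beside the E-box. The 22 genes with one had a median log2 change of -0.39 under SAHA, -0.79 under sonidegib and -0.86 under the combination. The 22 genes without one had -0.46, -0.72 and -0.72. MYC itself had 35.8, 35.6 and 40.9 TPM in SAHA libraries, 73.9, 69.8 and 77.3 TPM in sonidegib libraries and 33.8, 35.2 and 37.9 TPM in combination libraries, against 79.7, 99.3 and 98.95 TPM in control libraries. It was low in both groups with SAHA and closer to control with sonidegib, with log2 changes of -1.28 ± 0.09, -0.32 ± 0.09 and -1.35 ± 0.09 and adjusted p of 3.48e-07, 0.0111 and 1.79e-07.

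A list of 113 other ribosome biogenesis genes, all of them tested, had more genes lower than higher with each treatment. With SAHA 43 fell and 19 rose (median log2 change -0.19), beside 26.9% and 31.8% of all tested genes. With sonidegib 79 fell and 5 rose (-0.50), beside 29.2% and 26.1%, and with the combination 72 fell and 9 rose (-0.42), beside 34.0% and 29.7%. The roles within the list differed in their counts. With SAHA 7 of the 36 small subunit genes fell and 8 rose (median 0.01), and 3 of the 10 snoRNP genes fell and 3 rose (median 0.05). With the combination 4 of the 11 genes of RNA polymerase I transcription fell and 2 rose (median 0.06). WDR18, of the complex that releases the large subunit from the nucleolus, averaged 29.3 ± 4.18 TPM in SAHA libraries and 75.02 ± 8.65 TPM in control libraries (SD, n = 3 each; adjusted p 1.13e-06). EMG1, a methyltransferase of 18S rRNA, averaged 13.4 ± 1.26 and 29.9 ± 3.87 TPM in these groups (adjusted p 2.17e-06). The exosome nuclease DIS3 and the helicase DDX24 rose with SAHA, by 0.84 ± 0.11 and 0.63 ± 0.07 (adjusted p 4.88e-05 and 1.56e-05).

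With sonidegib the lowest of these were the exosome subunit EXOSC4, at 31.4 ± 1.59 TPM in sonidegib libraries and 107 ± 5.42 TPM in control libraries, and LAS1L, a nuclease of rRNA spacer removal, at -1.29 ± 0.06 on the log2 scale (adjusted p 1.51e-08 and 3.13e-08). RSL24D1, a large subunit assembly factor, and TAF1D, of the factor that directs RNA polymerase I to its promoter, rose by 0.70 ± 0.12 and 0.62 ± 0.12 (adjusted p 0.000457 and 0.00117). With the combination DHX37, the counterpart of that yeast helicase, averaged 4.44 ± 0.13 TPM in combination libraries and 15.04 ± 0.80 TPM in control libraries (adjusted p 4.51e-08). The nuclease EXOSC10 changed by -1.50 ± 0.10 (1.4e-07), and DIS3 and the export adaptor NMD3 rose by 0.69 ± 0.11 and 0.57 ± 0.12 (0.000195 and 0.00146). In the interaction 26 of the 113 were positive and 3 negative, beside 11.8% and 19.7% of all tested genes, with a median of 0.26.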

How the data were processed

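RNA sequencing libraries of MDA-MB-468 cells, 3 each with SAHA, sonidegib, the combination or neither drug, were grouped by their labels. RNA was extracted with TRIzol, per the labels' protocols. The deposited values are TPM per gene, which the authors had already scaled for transcript length and library total. Bowtie2 2.4.1 and GRCh38 are named in the submitters' processing notes; the quantifier, the annotation, any filter, the RNA selection and strandedness are not given in the sources used here. TPM keep no depth, so the reads behind a value are unknown and no counting error is given. No 2 libraries were identical.

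The test was limma 3.58.1 (R 4.3.3) on log2(TPM + 1). Genes were kept where the 12 libraries averaged 1 TPM or more, which left 13937, and a mean was fitted per group (4 groups, 8 residual degrees of freedom), with variances moderated along an intensity trend. Two-sided p-values were adjusted within each comparison over all tested genes (Benjamini-Hochberg); calls needed an adjusted p under 0.05. The fit was tested on simulated data. Gene positions and overlaps came from GENCODE release 29 and promoter windows from RefSeq (GRCh38.p14).

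The 53 genes, their roles and the list of 113 others (3 found by an older symbol) were chosen with earlier results of these data known. Given library by library are, in each role, the 2 called genes with the largest change against control, 9 set genes (NCL, NPM1, FBL, DKC1, POLR1A, UBTF, TCOF1, NOP56 and PES1), and any gene called against the direction of its role. The 4 largest called rises and falls of the other comparisons, MYC, and the 2 largest called rises and falls of the 113 per comparison against control were added. Other values named, such as DDX21 and BOP1, complete the account of a role. Alternatives changed the pseudocount, the filter, the scaling, the genes in the TPM total, the groups in the fit, the replicate block and the variance trend, or left out 1 library. The value of 1 marker gene is not reported here.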

Additional observations from a re-analysis of the deposited data

Results flagged for a closer look

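For 25 genes the SAHA change differed between cells with and without sonidegib, by the limma interaction test at an adjusted p under 0.05. The values are differences of log2 changes, the SAHA change with sonidegib minus the SAHA change without it, and all 25 were positive. Among the abundant proteins they were 1.17 for NCL, 1.09 for NPM1 and 0.54 for DDX21. Among snoRNP genes they were 0.25 for FBL, 0.76 for DKC1, 0.59 for NHP2 and 0.76 for NOLC1. Genes of RNA polymerase I transcription had 0.50 for POLR1C, 0.96 for TCOF1 and 0.47 for UBTF. In the small subunit processome the values were 0.27 for RRP9, 0.99 for UTP20, 0.44 for WDR43, 0.66 for MPHOSPH10 and 0.26 for NAT10, and in late small subunit maturation 0.48 for NOB1 and 0.33 for TSR1. Large subunit assembly had 0.58 for BOP1, 0.44 for PES1, 0.50 for RRP1B, 0.32 for RRS1, 0.76 for EBNA1BP2, 0.75 for MRTO4, 0.65 for NIP7 and 0.52 for PPAN. Of 22 alternatives, the interaction call was kept under 6 for RRS1, 7 for NAT10, 9 for FBL, 10 for TSR1, 13 for WDR43, 13 for MPHOSPH10, 15 for RRP9 and 18 for DDX21. The other genes of the 25 kept it under every alternative in which they were tested.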

How the results depend on the processing

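The 53 genes had 38, 47 and 47 lower calls against control under SAHA, sonidegib and the combination, and the alternatives gave 35 to 45, 43 to 48 and 44 to 47. The 75th percentile scaling gave 35, 43 and 44, beside 24.6%, 23.6% and 27.9% of all tested genes. Median-of-ratios scaling gave 45, 48 and 47, beside 31.7%, 29.5% and 33.0%. Leaving out 1 library gave 35 to 41, 44 to 48 and 45 to 47. Higher calls with SAHA numbered 1 in place of 2 with no filter, with median-of-ratios scaling and without the intensity trend, and 1 to 2 on leaving out 1 library; the gene lost was IMP3 in these cases. They numbered 3 with 75th percentile scaling and with protein-coding genes alone, beside 35.8% and 38.0% of all tested genes, against 31.8% in the main fit. Higher calls of the combination against SAHA numbered 8 with median-of-ratios scaling, 7 with 75th percentile scaling and 8 with quantile normalization, against 4, and 3 to 5 on leaving out 1 library. The shares of all tested genes called higher in these 3 scalings were 25.8%, 24.1% and 26.6%, against 18.0%. Positive interaction calls numbered 38 with median-of-ratios scaling, 24 of them among the 25, beside 18.6% of all tested genes. They numbered 21 with protein-coding genes alone, beside 12.8%, and 18 to 26 on leaving out 1 library. The negative interaction count of 0 became 1 with 75th percentile scaling, with protein-coding genes alone and with the replicate block, and 0 to 1 on leaving out 1 library; the gene was UTP14A each time. The cause of these differences was not tested. The scalings moved the all-gene median by over 0.1 in the combination against SAHA (0.12 with median-of-ratios and quantile), sonidegib and the combination against control (0.12 and 0.14 with the 75th percentile) and the interaction (0.10 with median-of-ratios and quantile). Replicate numbers gave no clear pairing of the libraries: 1 of 18 same-number pairs had a correlation over 0.1. Same-number pairs ran from -0.059 to 0.111 and other pairs from -0.107 to 0.097. The number of libraries that correlated best with their own number in every other group was 0. With the replicate block the lower calls were 39, 48 and 47 against control, 36 against SAHA and 18 against sonidegib. There were 31 positive interaction calls with it, beside 13.4% of all tested genes. Of 3145 recomputed values for the 23 genes given library by library, 84 lost their call, 31 gained one and 0 changed sign while called. Depth is unknown, so its limit on low genes such as UTP20 is unknown.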
